A study of Mus musculus with 18 samples.

Results

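Mesenchymal cells (MC) of the mouse aorta-gonad-mesonephros region (AGM) were compared after explant culture and directly after dissection. The members are 4 RNA-seq libraries of 18 in the series, taken by their labels: 2 of cultured and 2 of fresh mesenchymal cells, paired by whether the cells carried green fluorescence from a BMP reporter. All came from embryonic day 11 embryos of the C57BL6 BRE-GFP reporter strain and were sorted as CD31 negative and c-Kit negative. In this strain a BMP response element drives GFP, so each culture state gave 1 GFP-positive and 1 GFP-negative library. The MC explant group came from whole AGM pieces cultured, per the series' design text, in conditions containing BMP/Hedgehog; a further 2 MC libraries came from such explants with cyclopamine, a Smoothened inhibitor, and serve here only to estimate the spread and as values for comparison. The MC fresh group had no culture. Sorting followed culture, so the explants held endothelial, blood and mesonephric cells beside the mesenchyme while in culture. The sources used here do not give the time in culture or the number of embryos per library.

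The AGM is where the first haematopoietic stem cells of the embryo arise, from the floor of the dorsal aorta. The mesenchyme around the aorta signals to that endothelium with BMP, Hedgehog and chemokine ligands, and it contains or borders smooth muscle precursors, sclerotome (the somite-derived precursors of vertebral cartilage), mesonephric stroma and migrating neural crest. Sox9 directs precursors into cartilage, which then secrete collagen types, aggrecan and link protein. The explant assay is widely used to test what the region needs to make stem cells.

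The total of counts assigned to genes was 14479053 and 15125074 in the GFP-negative and GFP-positive MC explant libraries, against 16142766 and 4547062 in the GFP-negative and GFP-positive MC fresh libraries. The MC fresh GFP-positive library stood apart: it held 12028 detected genes, against 17848 in the MC fresh GFP-negative library and 18561 and 18816 in the explants. In it, 219 of 8167 genes with at least 10 CPM (counts scaled to a common library total) in each of the other 5 MC libraries had no read at all, and the same count was 0 in each of those 5 libraries. Its Spearman correlations with the other MC libraries across genes were 0.775 to 0.813, against 0.927 to 0.972 in the 10 pairs without it. Where a list's median is given below, its median log2 ratio of CPM + 1 is therefore also given in each GFP pair. Below, pairs of values are given GFP-negative library first, then GFP-positive library, as CPM of the scaled library total, and 3 counts correspond to 0.206 and 0.205 CPM in explants and to 0.193 and 0.619 CPM in fresh cells.

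The sort was checked on its own markers. Pecam1, which encodes CD31, stood at 9.14 and 11.3 CPM in explants, against 6.57 and 3.09 CPM in fresh cells. Kit, which encodes the receptor used in the gate, stood at 127 and 20.6 CPM in explants and at 104 and 75.7 CPM in fresh cells. Its transcript was thus read in all 4 libraries, though the sort was for cells negative for the protein. Which cells carried it was not tested. Pdgfra, a platelet-derived growth factor receptor of mesenchyme, stood at 456 and 225 CPM in explants, against 480 and 184 CPM in fresh cells, and Pdgfrb at 295 and 229 CPM, against 195 and 162 CPM. Both libraries of each group carried both receptor transcripts, which were not used in the sort. Xist and the Y-linked Ddx3y were both present in every one of these libraries, at 134 and 86.5 CPM and 159 and 130 CPM in explants, against 79.6 and 130 CPM and 118 and 36.5 CPM in fresh cells.

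Explant mesenchymal cells carried more RNA of cartilage matrix genes than fresh ones, with Lect1 at 1273 and 2527 CPM in explants, against 60.9 and 47.5 CPM in fresh cells. Genes of the interferon response and of amino acid and protein stress also read higher, such as Ddit3 at 114 and 131 CPM in explants, against 21.2 and 22.3 CPM in fresh cells. The chemokine Cxcl12 and the imprinted genes Mest and Nnat read lower, Cxcl12 at 144 and 142 CPM in explants, against 663 and 554 CPM in fresh cells. For Lect1, Ddit3 and Cxcl12 the groups lay further apart on a log scale than the libraries within a group. That was not so for every member of these lists, and no gene passed the test across all genes on all MC libraries. With the 2 cyclopamine libraries in the model and the GFP fraction as a covariate, edgeR's quasi-likelihood test called 0 of 15069 genes at a Benjamini-Hochberg adjusted p under 0.05; the lowest adjusted p was 0.193, and 1162 genes had an unadjusted p under 0.05, 532 higher (3.53%) and 630 lower (4.18%). DESeq2 on the same 6 libraries called 212 genes higher (1.41%) and 71 lower (0.471%) in explants. The edgeR count depended on the libraries entered. It was 549 genes higher (3.67%) and 405 lower (2.7%), 954 in all, without the MC fresh GFP-positive library, and 8221 without the MC fresh GFP-negative library; in both fits the lone fresh library was assumed to vary as the others do. It was 144 and 135 without the GFP-negative or the GFP-positive cyclopamine library, 18 and 3 without the GFP-negative or the GFP-positive explant library, and 83 when the 4 MC explant and MC fresh libraries were fitted alone. The labels name no separate litters or cultures, so p-values measure only the spread between these libraries. An exact permutation test of 2 libraries against 2 cannot give a two-sided p below 0.333, and none was used.

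Genes are therefore described by whether the groups lay apart, which is a description and not a test: a gene lay apart when each explant library was at least 2-fold above, or below, each fresh library on the CPM + 1 scale. By this measure 909 of 15069 genes (6.03%) were higher and 207 (1.37%) lower in explants. With the MC fresh GFP-negative library as the only fresh library the counts were 1190 (7.9%) and 457 (3.03%). The median log2 fold change over all genes was 0.25, and the median log2 ratio was 0.003 in the GFP-negative pair and 0.50 in the GFP-positive pair, so fold changes of lists are read beside these medians.

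The genes of lowest p on the higher side were mostly cartilage and tendon matrix genes, and all 8 named by this rule lay apart. None passed edgeR's adjusted threshold on 6 libraries, and all 8 did in DESeq2 on the same libraries. The rule picked these genes by their p in these libraries, so neither result is separate support. Aspn, which encodes asporin, a small leucine-rich proteoglycan of cartilage and periodontal tissue (chr13:49544443-49567565, GRCm38), stood at 134 and 280 CPM in explants, against 1.29 and 0.619 CPM in fresh cells. Both explant libraries lay far above both fresh libraries, in which Aspn was close to the detection floor, and its log2 fold change was 7.44 ± 0.65 (SE; edgeR adjusted p = 0.193). Ogn, encoding osteoglycin of the same proteoglycan family, lies beside it on the chromosome (chr13:49608046-49624501) and stood at 390 and 486 CPM in explants, against 32.3 and 23.7 CPM in fresh cells, a log2 fold change of 3.95 ± 0.38.

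Lect1, which encodes chondromodulin, a cartilage glycoprotein that keeps vessels out, stood at 1273 and 2527 CPM in explants, against 60.9 and 47.5 CPM in fresh cells, with a log2 fold change of 5.05 ± 0.48. Mia1, a secreted protein of chondrocytes, stood at 103 and 236 CPM in explants, against 5.15 and 9.90 CPM in fresh cells. Hapln1, the link protein that fixes aggrecan to hyaluronan, stood at 641 and 760 CPM in explants, against 55.9 and 85.8 CPM in fresh cells (log2 fold change 3.33 ± 0.33). In these 3 genes the lower explant library was many times the higher fresh library. Chad, chondroadherin of cartilage matrix, stood at 200 and 322 CPM in explants, against 18.9 and 13.2 CPM in fresh cells. Fam180a stood at 39.6 and 95.4 CPM in explants, against 0.193 and 0 CPM in fresh cells, which is 3 reads in both fresh libraries together, so no fold is given. Lrrc17, a secreted leucine-rich repeat protein, stood at 375 and 524 CPM in explants, against 76.7 and 78.6 CPM in fresh cells.

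The 8 genes of lowest p on the lower side had other roles: actin regulation, mitochondrial enzymes, chemokine and retinoid binding. Pfn1, encoding the actin monomer-binding protein profilin, stood at 60.8 and 40.1 CPM in explants, against 348 and 243 CPM in fresh cells, a log2 fold change of -2.56 ± 0.35 (SE; edgeR adjusted p = 0.336). Dbn1, encoding the actin-binding protein drebrin, stood at 13.2 and 11.9 CPM in explants, against 93.2 and 139 CPM in fresh cells. Syne2, a nesprin that links the nucleus to actin, stood at 76.9 and 78.4 CPM in explants, against 269 and 246 CPM in fresh cells. For each of these 3 genes the highest explant value lay well below the lowest fresh value.

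Cxcl12, the chemokine that retains haematopoietic stem cells through the receptor Cxcr4, stood at 144 and 142 CPM in explants, against 663 and 554 CPM in fresh cells. Its log2 fold change was -2.09 ± 0.36, and it stood at 143 and 236 CPM in the cyclopamine explants, so all 4 cultured libraries lay below both fresh ones. Crabp1, a retinoic acid carrier, stood at 91.8 and 154 CPM in explants, against 395 and 440 CPM in fresh cells. Idh2 and Aldh2, mitochondrial dehydrogenases of isocitrate and of aldehydes, stood at 90.7 and 72.9 CPM and at 13.3 and 13.3 CPM in explants, against 310 and 246 CPM and 64.0 and 82.3 CPM in fresh cells. Unlike Cxcl12, Idh2 stood at 298 and 261 CPM in the cyclopamine explants and Pfn1 at 256 and 293 CPM, each within its range in fresh cells. Nnat, an imprinted membrane proteolipid gene, is given with its list.

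**Figure D1:**
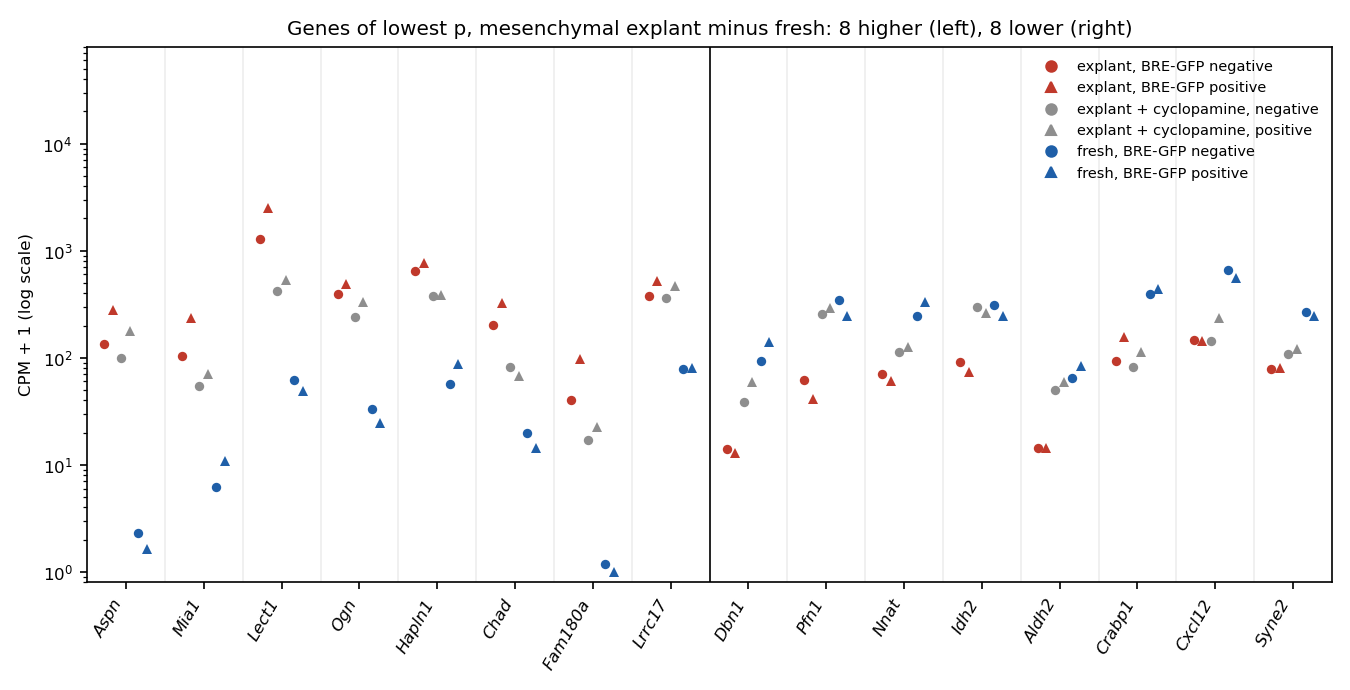
CPM + 1 on a log axis for the 16 genes of lowest p, with 1 point per library (red explant, grey explant with cyclopamine, blue fresh; circles GFP negative, triangles GFP positive). In every gene both red points lie on one side of both blue points, which the choice by p in these libraries favours. For Lect1 the explant libraries read 1273 and 2527 CPM, against 60.9 and 47.5 CPM in fresh libraries.

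Among the lists of genes examined, interferon response genes held the largest share of members apart upward, 10 of 14. Cartilage and sclerotome genes held the largest number. Of 21 members tested, 11 lay apart higher, against 6.03% of all genes, and 1 lay apart lower, against 1.37%; the other 9 overlapped or differed by less. Their median log2 fold change was 2.05 (median log2 ratio 1.13 in the GFP-negative pair and 3.03 in the GFP-positive pair), beside 0.25 for all genes. Their summed level was 3718 and 5728 CPM in explants and 979 and 512 CPM in fresh cells, which is 3.80-fold higher in the GFP-negative pair. DESeq2 called the same numbers, 11 higher and 1 lower, against 1.41% and 0.471% of all genes. In the MC fresh GFP-positive library 9 of the 21 members had 3 reads or fewer. Members of lists named here beyond the first 3 of a list were chosen after their values were seen.

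Most of the structural genes lay apart upward, and no transcription factor of the list did. Col2a1, the main cartilage collagen, stood at 571 and 870 CPM in explants, against 260 and 59.2 CPM in fresh cells. Acan, encoding aggrecan (chr7:79053483-79115099), stood at 150 and 156 CPM in explants, against 14.7 and 0.619 CPM in fresh cells, and Matn1, encoding matrilin of mature cartilage (chr4:130944385-130955475), at 114 and 209 CPM, against 4.06 and 0.619 CPM. The log2 fold changes against the MC fresh GFP-negative library alone were 1.24 for Col2a1, 3.29 for Acan and 4.96 for Matn1. Sox9, the master regulator of chondrocytes, stood at 291 and 309 CPM in explants, against 231 and 165 CPM in fresh cells, a log2 fold change of 0.60 ± 0.32. Sox5 and Sox6, its partners, stood at 29.5 and 27.1 CPM and at 40.0 and 36.1 CPM in explants, against 34.3 and 12.2 CPM and 42.8 and 9.49 CPM in fresh cells, and neither lay apart. Pax9, a sclerotome transcription factor, was the member apart on the lower side, with 2.54 and 4.03 CPM in explants, against 24.4 and 26.8 CPM in fresh cells. Pax1, the related sclerotome factor, stood at 10.6 and 8.48 CPM in explants, against 25.1 and 0 CPM in fresh cells, so its fresh libraries lay on both sides.

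**Figure D2:**
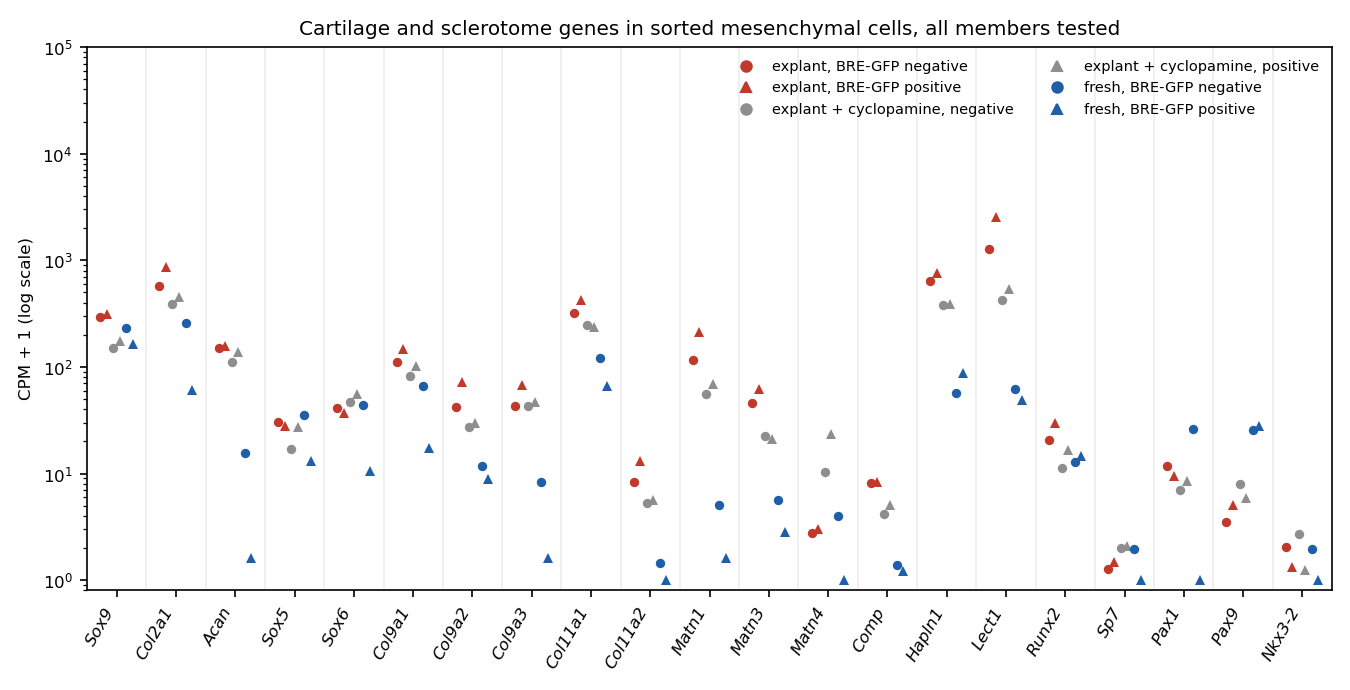
CPM + 1 on a log axis for all 21 cartilage and sclerotome genes tested, with 1 point per library (red explant, grey explant with cyclopamine, blue fresh). Matrix genes such as Lect1, Matn1 and Hapln1 read higher in both explant libraries than in both fresh ones; Pax9 reads 2.54 and 4.03 CPM in explants, against 24.4 and 26.8 CPM in fresh cells.

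In the explants with cyclopamine the summed level of these genes was 2024 and 2319 CPM, between the explants without it and the fresh cells. Lect1 stood at 420 and 533 CPM there, and Matn1 at 55.2 and 68.5 CPM. Both genes thus read lower than in explants without the inhibitor and higher than in fresh cells.

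Other matrix and fibroblast genes had fewer members apart. Of 20 fibroblast and mesenchyme genes tested, 3 lay apart higher, against 6.03% of all genes, and none lower. The list's median log2 fold change was -0.38, and its direction differed between the fractions, with a median log2 ratio of 0.27 in the GFP-negative pair and -0.51 in the GFP-positive pair. Without the MC fresh GFP-positive library 4 lay apart higher (20%, against 7.9% of all genes) and 1 lower. Dcn, encoding the collagen-binding proteoglycan decorin, stood at 1141 and 1956 CPM in explants, against 205 and 308 CPM in fresh cells, a log2 fold change of 2.57 ± 0.32. Col1a1, the main collagen of bone and skin, stood at 203 and 383 CPM in explants, against 170 and 1446 CPM in fresh cells, so its direction differed between the fractions. Of 26 collagen and matrix genes, 4 lay apart higher and 1 lower, against 6.03% and 1.37% of all genes. Col6a1 stood at 250 and 308 CPM in explants, against 36.0 and 118 CPM in fresh cells, whereas Fbln5, an elastic fibre protein, stood at 33.7 and 41.8 CPM, against 88.4 and 216 CPM. Of 21 matrix proteases and inhibitors, 4 lay apart higher and none lower, beside those same shares of 6.03% and 1.37%. Timp3, a metalloproteinase inhibitor, stood at 709 and 730 CPM in explants, against 286 and 188 CPM in fresh cells.

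Of 16 smooth muscle genes, 12 had negative log2 fold changes, whereas 8726 of all 15069 genes had positive ones, and 1 lay apart lower, against 1.37% of all genes. The median log2 fold change was -0.85, and the median log2 ratio was -0.34 in the GFP-negative pair and -0.97 in the GFP-positive pair. No member passed the edgeR test, and neither did any other gene. Acta2, smooth muscle actin, stood at 675 and 1082 CPM in explants, against 581 and 2150 CPM in fresh cells. Tagln, the actin-binding transgelin, stood at 80.9 and 272 CPM in explants, against 197 and 791 CPM in fresh cells, lower in each fraction but with overlapping groups.

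Interferon response genes had a median log2 fold change of 3.55 over 14 members. The median log2 ratio was 1.51 in the GFP-negative pair and 2.79 in the GFP-positive pair, where 8 of the 14 had no read in the fresh library. Interferon signalling switches on antiviral genes through factors that bind the interferon-stimulated response element (ISRE). Here 10 of 14 members lay apart higher, against 6.03% of all genes, and none lower, and all 14 had positive fold changes. Their summed level was 379 and 485 CPM in explants, against 91.1 and 92.6 CPM in fresh cells, 4.16-fold higher in the GFP-negative pair. DESeq2 called 5 members higher, against 1.41% of all genes. In the MC fresh GFP-positive library 12 of the 14 members had 3 reads or fewer. A gene was tested with at least 1 CPM in at least 2 MC libraries, so it could enter through cultured libraries alone. Such a gene, with almost no fresh reads, could not have come out lower. This applied to all lists.

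Usp18, a protease that removes the ubiquitin-like protein ISG15, stood at 49.3 and 38.8 CPM in explants, against 4.38 and 0.206 CPM in fresh cells. Ddx58, encoding the viral RNA sensor RIG-I, stood at 28.8 and 28.9 CPM in explants, against 6.70 and 0.413 CPM in fresh cells. For both genes the explant libraries read alike and both lay above both fresh libraries. Rsad2, encoding the antiviral enzyme viperin, stood at 7.56 and 7.79 CPM in explants, against 0.193 and 0 CPM in fresh cells, which is 3 reads over both. The list's first members were low: Ifit1 stood at 3.50 and 14.1 CPM in explants, against 1.03 and 0 CPM in fresh cells, and Isg15 at 1.79 and 4.72 CPM, against 0.451 and 0 CPM.

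Promoters of these genes were read from RefSeq's GRCm38.p6 sequences, 250 bases before to 50 after the annotated start. The motif GAAA, any 2 bases, GAAA, searched on both strands as the ISRE, was found in 8 of the 11 interferon members with an entry, against 3.44% of all 32851 promoters; Rsad2 and Ddx58 are shown because they lay apart. The capitals mark the match, which on the gene's strand reads as its reverse complement in both.
Rsad2 (chr12:26456403-26456702, minus strand): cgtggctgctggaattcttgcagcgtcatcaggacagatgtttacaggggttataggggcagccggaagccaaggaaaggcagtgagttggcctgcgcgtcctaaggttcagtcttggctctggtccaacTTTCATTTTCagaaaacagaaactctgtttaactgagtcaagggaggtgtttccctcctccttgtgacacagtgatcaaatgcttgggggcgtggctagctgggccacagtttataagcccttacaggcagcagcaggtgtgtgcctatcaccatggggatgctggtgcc
Ddx58 (chr4:40239776-40240075, minus strand): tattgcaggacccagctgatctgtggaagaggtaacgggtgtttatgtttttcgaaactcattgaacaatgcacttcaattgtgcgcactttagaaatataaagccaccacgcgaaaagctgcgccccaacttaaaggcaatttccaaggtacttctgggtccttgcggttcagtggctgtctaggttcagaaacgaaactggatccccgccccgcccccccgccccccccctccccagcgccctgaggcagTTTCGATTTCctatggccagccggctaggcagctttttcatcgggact

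Genes of the unfolded protein and amino acid response formed the next group. When amino acids run short or proteins misfold, the kinases GCN2 and PERK raise the factor ATF4, which switches on amino acid synthesis and transport genes and the factor CHOP. Of 17 members tested, 7 lay apart higher, against 6.03% of all genes, and none lower, against 1.37%. The median log2 fold change was 1.02 (median log2 ratio 1.64 in the GFP-negative pair and 1.54 in the GFP-positive pair). DESeq2 called 6 higher, against 1.41% of all genes, and none lower.

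Ddit3, which encodes CHOP, stood at 114 and 131 CPM in explants, against 21.2 and 22.3 CPM in fresh cells, a log2 fold change of 2.50 ± 0.39. Trib3, a pseudokinase induced by ATF4 and CHOP, stood at 25.4 and 23.4 CPM in explants, against 1.80 and 0.206 CPM in fresh cells. Asns, asparagine synthetase, stood at 707 and 539 CPM in explants, against 192 and 143 CPM in fresh cells, a log2 fold change of 1.90 ± 0.31. These 3 genes had both explant libraries above both fresh libraries by wide margins. Chac1, which degrades glutathione, stood at 13.3 and 12 CPM in explants, against 0.709 and 0 CPM in fresh cells, and Herpud1, of endoplasmic reticulum-associated degradation, at 425 and 310 CPM, against 104 and 62.3 CPM. The other 10 members did not lie apart. Hspa5, encoding the chaperone BiP, stood at 2621 and 2465 CPM in explants, against 2700 and 1870 CPM in fresh cells, with overlapping groups and a log2 fold change of 0.17 ± 0.37. Xbp1, the factor activated by IRE1 splicing, stood at 77.4 and 101 CPM in explants, against 61.2 and 262 CPM in fresh cells, and also overlapped. Dnajb9, a cochaperone of BiP, stood at 31.8 and 36.9 CPM in explants, against 16.3 and 19.4 CPM in fresh cells, without overlap but short of the 2-fold gap.

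The motif TGATGNAA, searched on both strands as the composite C/EBP-ATF response element, was found in the promoters of 4 of 16 members with an entry, against 3.97% of all promoters. Those 4 were Trib3, Asns, Chac1 and Herpud1, and each lay apart. The endoplasmic reticulum stress element, written as CCAAT, any 9 bases, CCACG on either strand, was found in 1 of the 16, Hspa5, against 0.119% of all promoters. The promoters of Chac1 and Asns are shown, with the TGATGNAA match in capitals; in Chac1 it lies on the opposite strand.
Chac1 (chr2:119350992-119351291, plus strand): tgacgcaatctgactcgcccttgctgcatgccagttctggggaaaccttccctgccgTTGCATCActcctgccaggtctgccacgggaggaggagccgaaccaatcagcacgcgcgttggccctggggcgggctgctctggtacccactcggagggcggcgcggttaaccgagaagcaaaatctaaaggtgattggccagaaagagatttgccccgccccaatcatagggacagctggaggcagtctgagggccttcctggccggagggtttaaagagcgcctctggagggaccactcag
Asns (chr6:7693160-7693459, minus strand): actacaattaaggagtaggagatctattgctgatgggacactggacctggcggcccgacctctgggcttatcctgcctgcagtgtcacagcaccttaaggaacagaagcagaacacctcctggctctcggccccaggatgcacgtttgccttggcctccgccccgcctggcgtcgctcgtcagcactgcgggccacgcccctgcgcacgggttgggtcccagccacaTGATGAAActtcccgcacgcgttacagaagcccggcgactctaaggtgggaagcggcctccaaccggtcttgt

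**Figure D3:**
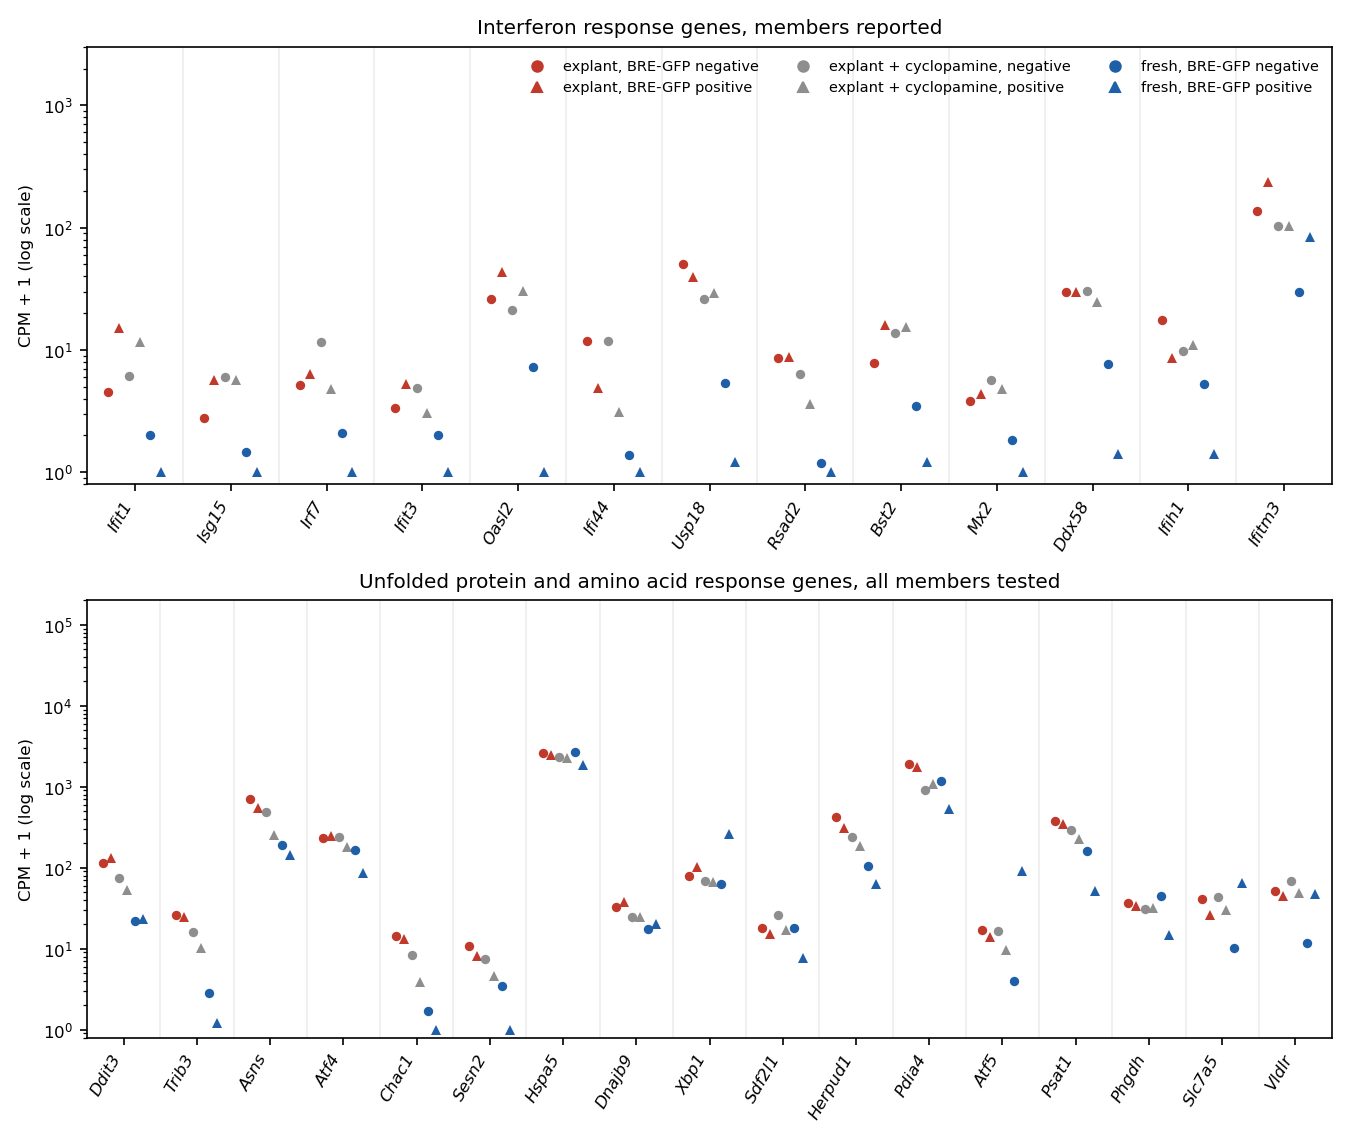
CPM + 1 on a log axis for the interferon response genes reported here (top) and all 17 unfolded protein and amino acid response genes (bottom), with 1 point per library (red explant, grey explant with cyclopamine, blue fresh). Many fresh GFP-positive points lie at a value of 1, which is no read; Ddit3 reads 114 and 131 CPM in explants, against 21.2 and 22.3 CPM in fresh cells.

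Glycolysis and hypoxia genes are switched on by the factor HIF when oxygen is scarce. Of 26 tested, 7 lay apart higher, against 6.03% of all genes, and none lower, against 1.37%. The median log2 fold change was 0.78 (median log2 ratio 0.50 in the GFP-negative pair and 1.31 in the GFP-positive pair). Slc2a1, the glucose transporter GLUT1, stood at 221 and 221 CPM in explants, against 105 and 21.7 CPM in fresh cells. P4ha2, a collagen prolyl hydroxylase subunit, stood at 390 and 646 CPM in explants, against 140 and 128 CPM in fresh cells (log2 fold change 1.89 ± 0.34), and Bnip3, a mitophagy receptor, at 124 and 164 CPM, against 46.3 and 48.1 CPM. In these 3 genes the groups did not overlap. Ldha, lactate dehydrogenase, stood at 829 and 1465 CPM in explants, against 685 and 673 CPM in fresh cells, and did not reach the 2-fold gap. Gapdh and Pgam1 had 2.20 CPM or less in the explants and are uncertain. Both have near-identical processed copies in the genome, and the authors kept reads at several places apart. Whether this lowered their counts was not tested.

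The hypoxia response element core ACGTG, on either strand, was found in 15 of 25 members with a promoter entry, against 19.6% of all promoters. P4ha2 and Bnip3 are shown, with each match in capitals; in Bnip3 the 2 matches are the same palindrome read on both strands.
P4ha2 (chr11:54100674-54100973, plus strand): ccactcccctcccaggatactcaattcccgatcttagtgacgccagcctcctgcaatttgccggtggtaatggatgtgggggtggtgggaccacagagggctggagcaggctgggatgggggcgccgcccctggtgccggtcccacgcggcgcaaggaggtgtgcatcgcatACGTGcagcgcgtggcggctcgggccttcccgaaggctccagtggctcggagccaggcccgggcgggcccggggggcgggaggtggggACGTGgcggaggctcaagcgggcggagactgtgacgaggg
Bnip3 (chr7:138909457-138909756, minus strand): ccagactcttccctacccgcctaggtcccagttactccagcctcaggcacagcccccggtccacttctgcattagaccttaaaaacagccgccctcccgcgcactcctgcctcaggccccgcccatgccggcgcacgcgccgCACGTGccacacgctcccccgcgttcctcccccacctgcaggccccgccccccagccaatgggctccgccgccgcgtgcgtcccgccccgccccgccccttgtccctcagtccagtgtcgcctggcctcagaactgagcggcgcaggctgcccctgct

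Immediate early genes, which cells transcribe within minutes of a stimulus such as serum, made up the next list. Of 19 immediate early and heat shock genes tested, 8 lay apart higher, against 6.03% of all genes, and none lower, against 1.37%. The summed level was 3.74-fold higher in the GFP-negative pair. Fos, part of the factor AP-1, stood at 434 and 848 CPM in explants, against 98.8 and 201 CPM in fresh cells (log2 fold change 2.10 ± 0.30). Btg2, an antiproliferative early gene, stood at 593 and 903 CPM in explants, against 95.0 and 209 CPM in fresh cells. Both genes read higher in the GFP-positive than in the GFP-negative library of each group. Jun, the partner of Fos, stood at 13.1 and 18.3 CPM in explants, against 12.7 and 39.2 CPM in fresh cells, and Egr1 at 168 and 250 CPM, against 41.2 and 257 CPM; neither lay apart.

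Inflammatory genes had 7 of 17 members apart higher, against 6.03% of all genes, and none lower. Their median log2 fold change was 2.53, with a median log2 ratio of 1.44 in the GFP-negative pair and 1.96 in the GFP-positive pair. Ccl2, a monocyte chemokine, stood at 48.7 and 160 CPM in explants, against 13.6 and 27.4 CPM in fresh cells. Il33, an alarmin, stood at 87.8 and 115 CPM in explants, against 21.5 and 2.89 CPM in fresh cells. Cxcl1, a neutrophil chemokine, stood at 6.87 and 28.5 CPM in explants, against 0.773 and 0 CPM in fresh cells, and Il6 at 1.37 and 2.80 CPM, against 0.580 and 0 CPM. Il33 and Cxcl1 lay apart, but Ccl2 and Il6 did not reach the 2-fold gap. Of these genes Ccl2 and Il33 were measured well above the floor in the fresh GFP-negative library, and 10 of the 17 members had 3 reads or fewer in the fresh GFP-positive library. Of 12 oxidative stress and metal response genes, 3 lay apart higher, against 6.03% of all genes. Mt1, a metallothionein, was among them, at 205 and 255 CPM in explants, against 41.1 and 15.3 CPM in fresh cells. Hmox1, haem oxygenase, stood at 58.7 and 137 CPM in explants, against 52.9 and 76.7 CPM in fresh cells.

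Cell cycle genes read lower in the GFP-negative pair. Of 24 tested, 20 had negative log2 fold changes and 1, Bub1, lay apart lower, against 1.37% of all genes. The median was -0.28 beside 0.25 for all genes. The median log2 ratio was -0.72 in the GFP-negative pair and 0.10 in the GFP-positive pair, so its sign differed between the fractions. Each value lay below the median of all genes in its pair, 0.003 and 0.50. The list's summed level was 5113 and 4290 CPM in explants, against 8608 and 5068 CPM in fresh cells. Bub1, a spindle checkpoint kinase, stood at 40.9 and 35.8 CPM in explants, against 134 and 116 CPM in fresh cells (log2 fold change -1.71 ± 0.33). Mki67, the proliferation antigen, stood at 178 and 113 CPM in explants, against 354 and 543 CPM in fresh cells, and Top2a, topoisomerase of dividing cells, at 751 and 439 CPM, against 1427 and 820 CPM. Mki67 was lower in both explant libraries than in both fresh ones by just under the 2-fold gap. DESeq2 called 2 members lower, against 0.471% of all genes. Cdkn1a, encoding the cell cycle inhibitor p21, stood at 29.4 and 45.3 CPM in explants, against 6.63 and 15.1 CPM in fresh cells.

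Imprinted growth genes, many of which are active in embryos and silenced after birth, were examined next. Of 14 tested, 3 lay apart lower and none higher, against 1.37% of all genes, and 11 had negative fold changes. The median log2 fold change was -0.71, with a median log2 ratio of -0.45 in the GFP-negative pair and -0.84 in the GFP-positive pair. Mest, a hydrolase-like gene, stood at 424 and 498 CPM in explants, against 1038 and 1514 CPM in fresh cells. Nnat, encoding neuronatin, stood at 70.0 and 59.6 CPM in explants, against 245 and 333 CPM in fresh cells, and Peg10, a retrotransposon-derived gene, at 18.6 and 21.1 CPM, against 52.2 and 134 CPM. In all 3 the explant libraries lay together below the fresh ones. H19, the imprinted RNA beside Igf2, stood at 1363 and 2028 CPM in explants, against 1312 and 2470 CPM in fresh cells, and Meg3 at 315 and 507 CPM, against 228 and 888 CPM; neither lay apart.

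**Figure D4:**
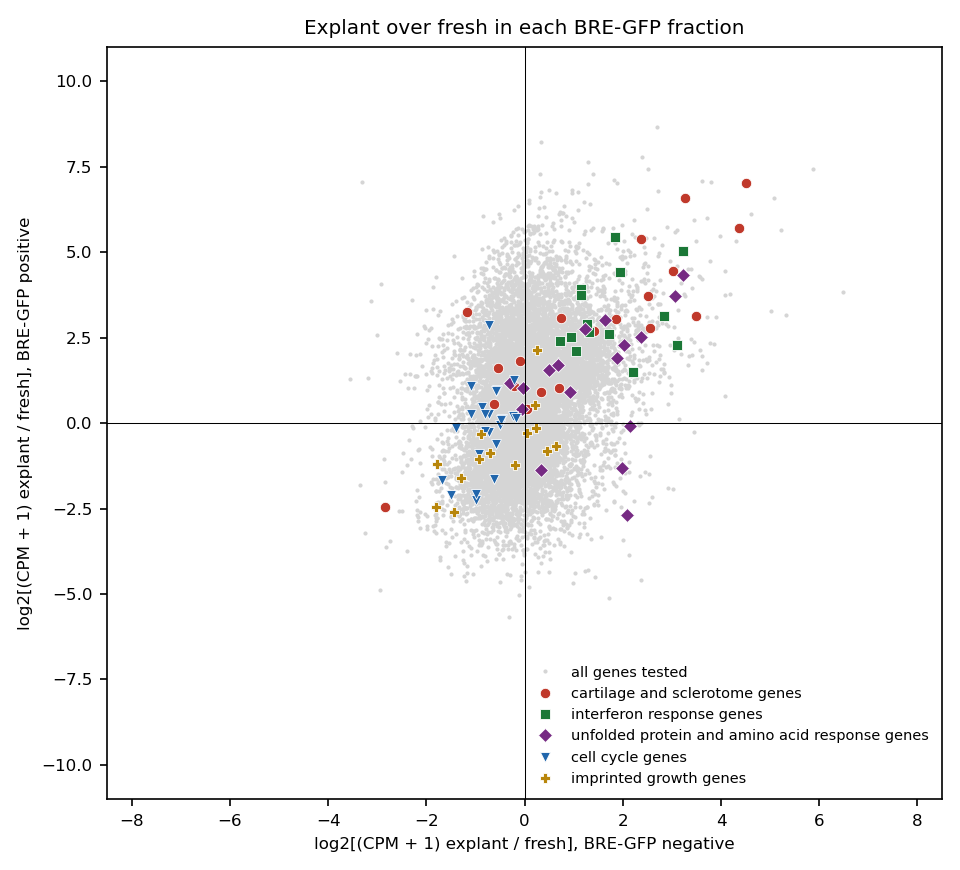
Each grey point is 1 of 15069 genes, plotted by its log2 ratio of CPM + 1, explant over fresh, in the GFP-negative pair (x axis) and in the GFP-positive pair (y axis); coloured points are members of 5 lists. Interferon response genes lie in the upper right quadrant, and most cell cycle genes lie left of 0; the y values spread more widely than the x values.

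The cells were sorted by a BMP reporter, and the design text names BMP/Hedgehog for the culture conditions, so the targets of both pathways were examined. BMP ligands bind paired receptors that phosphorylate SMAD factors, which switch on the Id genes. Of 15 BMP target genes, none lay apart higher, against 6.03% of all genes, and 1 lower, against 1.37%. Negative log2 fold changes were found in 10. Id1 stood at 43.7 and 58.5 CPM in explants, against 67.8 and 75.5 CPM in fresh cells, and Id2 at 874 and 988 CPM, against 1063 and 1071 CPM. Id3 stood at 351 and 500 CPM in explants, against 860 and 1054 CPM in fresh cells, a log2 fold change of -1.18 ± 0.29. These 3 inhibitors of helix-loop-helix factors read lower in every explant library than in both fresh libraries, but none reached the 2-fold gap between the closest libraries of the groups. In each group the GFP-positive library read higher for Id1 than the GFP-negative one. Of 20 BMP ligands, receptors, antagonists and SMADs, 1 lay apart higher and 2 lower, beside those same shares of 6.03% and 1.37%. Bmp4 stood at 65.3 and 58.0 CPM in explants, against 86.2 and 100 CPM in fresh cells.

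Hedgehog ligands release Smoothened from Ptch1, and Gli factors then raise Gli1, Ptch1 and Hhip. Of 13 Hedgehog target genes, 1 lay apart higher and none lower, close to the 6.03% and 1.37% of all genes. Gli1 stood at 33.5 and 27.5 CPM in explants, against 37.6 and 42.5 CPM in fresh cells. Ptch1 stood at 42.2 and 12.6 CPM in explants, against 53.2 and 4.33 CPM in fresh cells, and Hhip, an antagonist of the ligand, at 39.6 and 30.4 CPM, against 31.8 and 0 CPM. None of these 3 lay apart by 2-fold. Of the 13 ligands, coreceptors and transducers none lay apart, against 7.41% of all genes either way, and 10 had negative fold changes. The median log2 fold change was -0.79 (median log2 ratio -0.37 in the GFP-negative pair and -1.34 in the GFP-positive pair). Smo stood at 34.5 and 25.8 CPM in explants, against 45.0 and 8.66 CPM in fresh cells.

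Of 17 stem cell niche factors, 2 lay apart higher and Cxcl12, above, lower, against 6.03% and 1.37% of all genes. Kitl, the ligand of the Kit receptor, stood at 83.1 and 45.5 CPM in explants, against 85.3 and 8.05 CPM in fresh cells, and Igf2 at 568 and 1232 CPM, against 827 and 2095 CPM. Spp1, osteopontin, stood at 25.3 and 114 CPM in explants, against 8.63 and 7.43 CPM in fresh cells, so only Spp1 and Cxcl12 of these 4 had groups apart.

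Markers of other cells that the gate could hold were summed in each library. Macrophage genes, 14 tested, summed to 167 and 173 CPM in explants, against 284 and 174 CPM in fresh cells. Of the 14, 3 lay apart lower, against 1.37% of all genes, and none higher, against 6.03%, and 6 had positive log2 fold changes. Csf1r, the macrophage growth factor receptor, stood at 10.3 and 15.1 CPM in explants, against 31.5 and 42.7 CPM in fresh cells, and Lyz2, encoding lysozyme, at 32.4 and 19.1 CPM, against 18.1 and 1.03 CPM. Endothelial genes, 13 tested, summed to 88.3 and 170 CPM in explants and 100.2 and 275 CPM in fresh cells. Of the 13, 1 lay apart higher and 1 lower, beside those same shares of 6.03% and 1.37%. Flt1, a receptor for vascular endothelial growth factor, stood at 8.38 and 12 CPM in explants, against 3.29 and 0.413 CPM in fresh cells, Kdr, another such receptor, at 6.87 and 7.18 CPM, against 17.6 and 109.5 CPM, and Cdh5, encoding VE-cadherin, at 2.20 and 3.35 CPM, against 4.44 and 3.71 CPM. Erythroid genes, 11 tested, summed to 15268 and 27849 CPM in explants, against 28832 and 513 CPM in fresh cells, and are largely embryonic globins. No erythroid member lay apart, against 7.41% of all genes either way, and the fold went opposite ways in the pairs. Skeletal muscle genes, 18 tested, summed to 541 and 1007 CPM in explants and 435 and 928 CPM in fresh cells, and sympathoadrenal genes, 21 tested, to 774 and 957 CPM, against 593 and 1964 CPM. In these bulk libraries, fewer cells of a type and less RNA per cell cannot be told apart, and the part of such cells in the differences above was not tested.

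**Figure D5:**
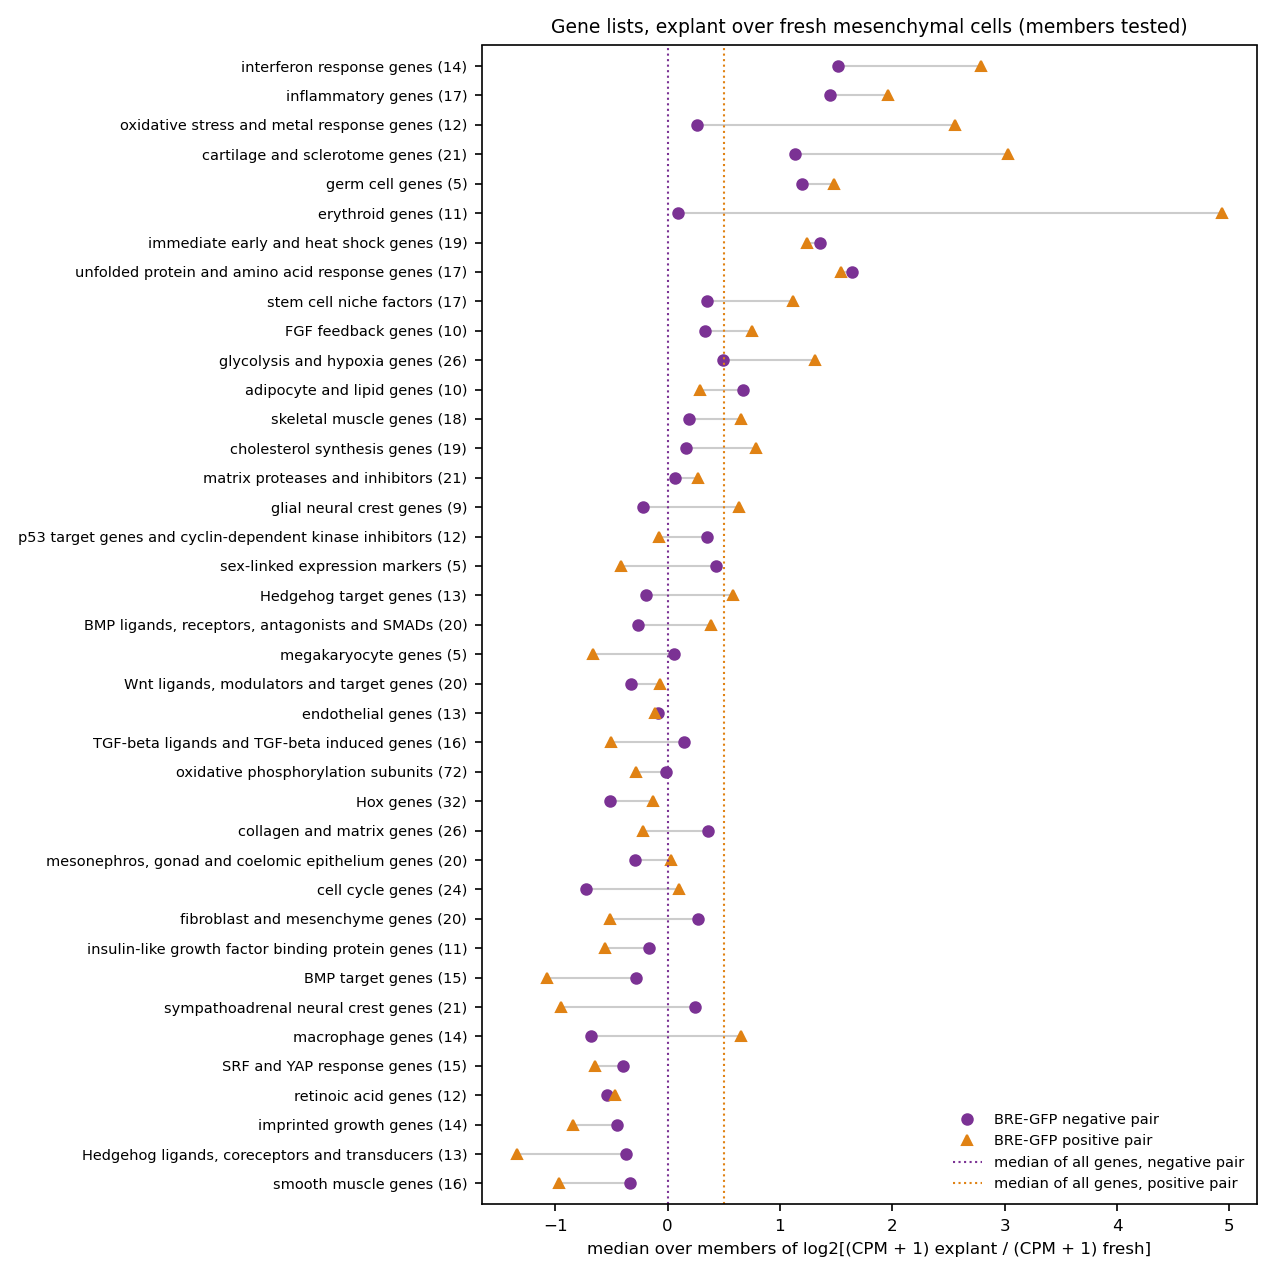
Median over each list's tested members of the log2 ratio of CPM + 1, explant over fresh, in the GFP-negative pair (purple circles) and the GFP-positive pair (orange triangles), for 39 lists ordered by their median fitted log2 fold change; dotted lines are the medians of all genes, 0.003 and 0.50. Interferon, inflammatory, cartilage, immediate early, germ cell, and unfolded protein and amino acid response genes lie right of both lines in both pairs. All 5 germ cell genes tested had 3 reads or fewer in the fresh GFP-positive library. Imprinted, smooth muscle and BMP target genes, among other lists, lie left of both.

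Whether the explant difference was particular to mesenchymal cells was tested against the endothelial (EC) and haematopoietic (HPSC) cells sorted from the same kinds of tissue. In a model of all 18 libraries, the explant difference in MC minus the mean of those in EC and HPSC was called for 0 of 16471 genes by edgeR, with 169 (1.03%) at an unadjusted p under 0.05; DESeq2 called 7 and limma-voom 0. The 3 genes of lowest p are named as not passing. Gpnmb, a lysosomal glycoprotein of macrophages and pigment cells, had a log2 fold change of 1.51 in MC, 6.22 in EC and 6.82 in HPSC, so the difference was -5.01 ± 1.01 (SE; edgeR adjusted p = 1). Igfbp3, which binds insulin-like growth factors, had -0.95 in MC, 2.66 in EC and 3.79 in HPSC. Ggta1, a galactosyltransferase, had 2.64 in MC, -0.66 in EC and 0.002 in HPSC, with 60.8 and 71.5 CPM in MC explants, against 11.4 and 9.79 CPM in fresh MC.

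The cartilage genes were not found to be particular to the mesenchymal sort. In this model the median log2 fold change of the 21 members was 2.12 in MC, 4.66 in EC and 0.77 in HPSC. Matn1 stood at 363 and 226 CPM in EC explants, against 9.84 and 0 CPM in fresh EC, and Lect1 at 1378 and 2316 CPM, against 16.6 and 7.61 CPM. In HPSC explants Lect1 stood at 0.953 and 13.2 CPM, against 3.78 and 1.56 CPM in fresh HPSC. The median of the 14 interferon response genes was 3.69 in MC, 0.93 in EC and 1.87 in HPSC, and that of the 17 unfolded protein and amino acid response genes was 1.09, 0.38 and 0.14. The difference between MC and the other populations was also counted at an unadjusted edgeR p under 0.05. It was positive for 1 of 21 cartilage, 1 of 14 interferon and 3 of 17 unfolded protein and amino acid response members. It was negative for none of them, and 1.03% of all genes reached that p either way. Counts of 1 are too small to be read as a result about a list.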

How the data were processed

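RNA-seq of sorted AGM cells was made, per the labels' protocols, with a SMARTer protocol from mirVana RNA. Each of the deposited tables gives 1 library's raw whole-number counts by gene symbol, with no scaling by the authors. TopHat, Cufflinks, HTSeq and mm10 appear in the submitters' processing notes. The sources used here give no versions, annotation or strand setting, so overlapping and antisense genes cannot be separated. Lines naming no gene were left out of totals; reads at no annotated feature were 45.5 to 46.8% in MC explants and 32.1 to 42.0% in MC fresh. Of 21881 symbols, 15069 had at least 1 CPM in at least 2 of the 6 MC libraries.

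The test was edgeR 4.0.16 (TMM, glmQLFit, glmQLFTest; R 4.3.3) on 6 MC libraries with culture and GFP fraction as terms (2 residual degrees of freedom; common biological coefficient of variation 0.636), Benjamini-Hochberg adjusted over all genes; alternatives used DESeq2 1.42.0 and limma 3.58.1. The model for the difference from EC and HPSC used 18 libraries. The edgeR fit of the 6 MC libraries was also run on simulated counts. Their spread was set below the common value fitted here, so that run does not measure power for these data. A member of the interferon list is not reported here by name, though it stays in the list's counts. Levels are CPM of the TMM-scaled total; ratios add 1 CPM. Named were the 8 genes of lowest p each way, since fewer than 3 passed. Each had the same direction in both fractions and at least 10 CPM in 1 group. For the difference, the 3 of lowest p were named. The first 3 members were named for some lists but not for all. For the collagen and matrix list and the matrix protease list, only members that lay apart were named. The libraries compared, the 39 gene lists and the tests were chosen with earlier results of these data known. Gene coordinates are GENCODE M21's on GRCm38. Deep totals narrow counting error only; there was 1 library per culture and fraction.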

Additional observations from a re-analysis of the deposited data

Results flagged for a closer look

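The summed level of erythroid genes differed in direction between the GFP fractions. The log2 ratio of explant over fresh was 5.76 in the GFP-positive pair and -0.92 in the GFP-negative pair; the difference was not tested, since each fraction has 1 library per culture. In explants 45.5% of uniquely placed reads in the GFP-positive library and 46.8% in the GFP-negative library lay at no annotated feature, against 42.0% and 32.1% in the fresh GFP-positive and GFP-negative libraries. Those reads enter no comparison here.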

How the results depend on the processing

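The count of genes called, 0 in edgeR, was 0 with upper-quartile scaling, with at least 5 CPM in 2 libraries, with all 18 libraries, without the GFP fraction term and with thinned counts. It was 283 in DESeq2, 1 in limma-voom, 7 without a filter, 83 on the 4 MC explant and MC fresh libraries, and, chosen after seeing the data, 598 in DESeq2 without MC fresh GFP positive and 214 in DESeq2 on the 4 libraries. Leaving out 1 MC library at a time gave 3 to 8221. List members called, 0 in all, came to 64, 1, 2, 24, 115 and 46 under those same settings, and to 1 to 406 with 1 library left out. DESeq2 with and without MC fresh GFP positive shared 266 calls. The count for the difference between populations was 7 in DESeq2 (Gpnmb, Inha, Mocs1, Tgm1, Tnfaip2, Trim66, Unc5cl) and 1, Gpnmb, without a filter, and 0 with each of 18 libraries left out. Genes apart on the lower side, 207, numbered 135 with upper-quartile scaling and 457 without MC fresh GFP positive; those on the higher side, 909, numbered 525 at 5 CPM; without MC fresh GFP negative the counts were 5504 higher and 2463 lower. The cause was not tested. The median log2 fold change of all genes moved to 0.33 in DESeq2 and 0.41 with upper-quartile scaling. Thinning all MC libraries to the lowest total gave 963 genes apart higher and 210 lower. The labels give no replicate numbers, and the GFP fraction served as the pairing.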
